A study of Drosophila melanogaster with 4 samples.

Results

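The small nucleolar RNAs (snoRNAs), small Cajal body RNAs (scaRNAs) and small nuclear RNAs (snRNAs) described here are the genes of the fruit fly Drosophila melanogaster whose symbols begin with snoRNA:, scaRNA: or snRNA:. They were chosen by symbol alone, with no measured value, and came to 122 genes (123 transcripts) of the 12116 genes (21529 transcripts) listed. The tested larvae were homozygous for hsromega66, an allele of the long noncoding RNA gene Hsromega, and the control larvae were wild type Oregon R+. Both were whole wandering larvae of the third instar, so every value is an average over all tissues, and less RNA per cell cannot be told apart from fewer cells of a type. Each library held ribosomal RNA-depleted, stranded total RNA of 5 larvae, read as pairs of 100 bp, with 2 libraries per genotype. The deposited values were FPKM, fragments scaled to the length of the transcript and to the mapped fragments of the library, which is a level per length. There was 1 pooled FPKM value per genotype, so no replicate spread could be computed for any gene, and the depth per library is unknown. A gene's FPKM was summed over its listed transcripts, and its log2 ratio was taken as log2(FPKM + 1) in hsromega66 minus that in control. Adding 1 understates the ratio of low genes.

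Box H/ACA snoRNAs pair with ribosomal RNA and direct the conversion of chosen uridines to pseudouridine, and box C/D snoRNAs direct methylation of the ribose. scaRNAs carry the same boxes and direct such changes in the spliceosomal RNAs, which recognise splice sites and the branch point as particles with Sm proteins. Most fly snoRNAs are cut out of introns of host genes, many of which encode ribosomal proteins, whereas snRNAs are transcribed from promoters of their own. Hsromega RNA organises omega speckles, nuclear bodies rich in RNA-binding proteins such as the hnRNP Hrb98DE. In the authors' deposited table Hsromega was listed at 0.290 FPKM in hsromega66 and 232 FPKM in control, with a p of 0.0903 and a q of 0.998.

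The 122 genes fell into 80 pseudouridine guides (Psi), 22 other snoRNAs, 6 scaRNAs and 14 snRNAs. No gene with a symbol beginning snoRNA:Me (called Me here) was listed, although the Ensembl 115 annotation has 78. Such symbols name a methylation guide among the snoRNAs. Listed scaRNAs whose symbols name a methylation site are counted with the scaRNAs. Me and Psi genes differ in length: annotated Me genes had a median length of 79 nt, against 140 nt for annotated Psi genes. Of all 306 annotated genes of these symbols, 121 (39.5%) were matched to a listed gene, and the shortest of these was snRNA:U5:63BC with 123 nt. None of the 125 annotated genes shorter than that was listed, against 121 of the 181 (66.9%) at least that long. The 3 Me genes of at least 123 nt were not listed either. Their gene identifiers are numbered above those of all listed small RNA genes. Whether the annotation used by the authors held them was not tested. The listed share was 79 of 106 for Psi genes, 22 of 73 for other snoRNAs, 6 of 17 for scaRNAs and 14 of 32 for snRNAs. All 3 U6 genes, which are 107 nt long, were among those not listed. snoRNA:Psi28S-612, the remaining listed gene, was not matched to the annotation. The values below therefore describe the longer genes of these families.

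**Figure D1:**
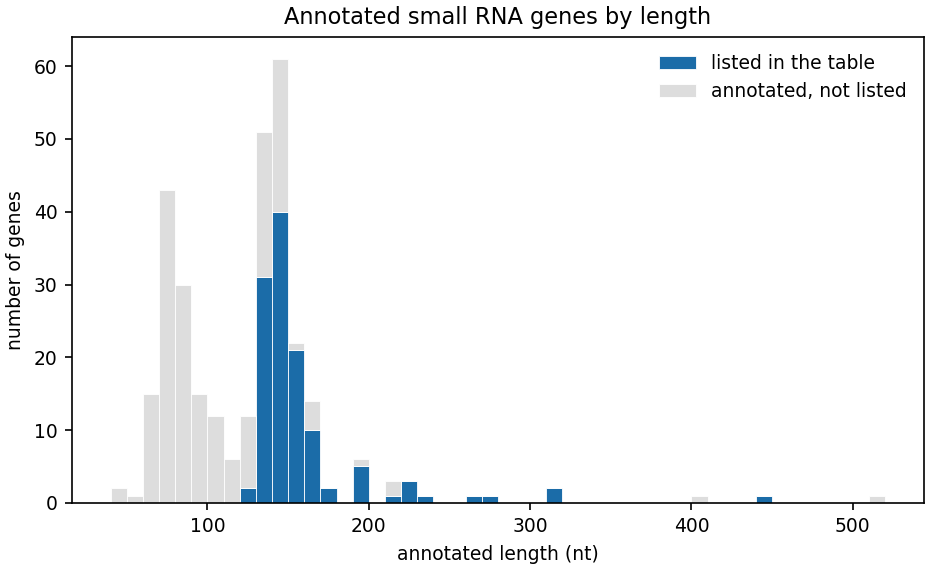
Number of annotated snoRNA, scaRNA and snRNA genes by annotated length in nt (bins of 10 nt), with genes that have a row in the table in blue and the other genes in grey, stacked. The listed genes begin at 123 nt, and the large group of shorter genes, with a median of 80 nt, is grey throughout.

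The small RNA genes were lower in hsromega66 more often than genes in general. Of the 122, 82 had a log2 ratio below 0 (67.2%, against 51.8% of all genes), and their median was -0.49, against -0.01 over all genes. Their FPKM summed to 125804 in hsromega66 and to 170143 in control, which is 13.5% and 17.5% of the summed FPKM of all genes. The lower sum came from the snoRNAs. Psi guides summed to 69661 FPKM in hsromega66 and 108983 FPKM in control, and the other snoRNAs to 11896 and 21413 FPKM. The scaRNAs summed to 1425 FPKM in hsromega66 and 1363 FPKM in control, and the snRNAs to 42822 and 38384 FPKM.

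The deposited test called few of these genes. At a q of at most 0.05 in the authors' deposited table, 1 of the 122 was called, and it was higher in hsromega66; 2.31% of all genes were called in either direction, 1.4% as higher and 0.908% as lower. Before adjustment, 5 of the 122 (4.10%) had a p of at most 0.05 in the authors' deposited table, 2 higher and 3 lower, against 7.82% of all genes, with 4.67% higher and 3.2% lower. A gene's p was the lowest of its transcripts, and only 1 of the 122 had more than 1 transcript. By transcript, 5 of 123 small RNA transcripts (4.07%) had such a p in the authors' deposited table, against 4.50% of all transcripts. All but 5 of the 122, that is 117, had a q above 0.99 in the authors' deposited table. Large ratios were nevertheless common. A ratio of at least 2 on the FPKM + 1 scale was reached by 47 of the 122 (38.5%), 16 higher and 31 lower, against 5.93% of all genes, with 3.35% higher and 2.58% lower. These 47 include all 10 genes listed at 0 in 1 genotype. Of the 47, only 2 had a p of at most 0.05 in the authors' deposited table. Of the 719 genes with such a ratio in the whole table, 64.0% did. Counted by transcript, 39.8% of the small RNA transcripts had a ratio of at least 2, and 4.08% of those had a p of at most 0.05 in the authors' deposited table. Of 77 other transcripts shorter than 300 nt, 39.0% had such a ratio, and 26.7% of those had such a p. Their median length was 252 nt, against 144 nt for the small RNA transcripts. For the 46 of them not annotated as protein-coding, the 2 shares were 39.1% and 16.7%. Over all transcripts the 2 shares were 9.29% and 27.7%.

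**Figure D2:**
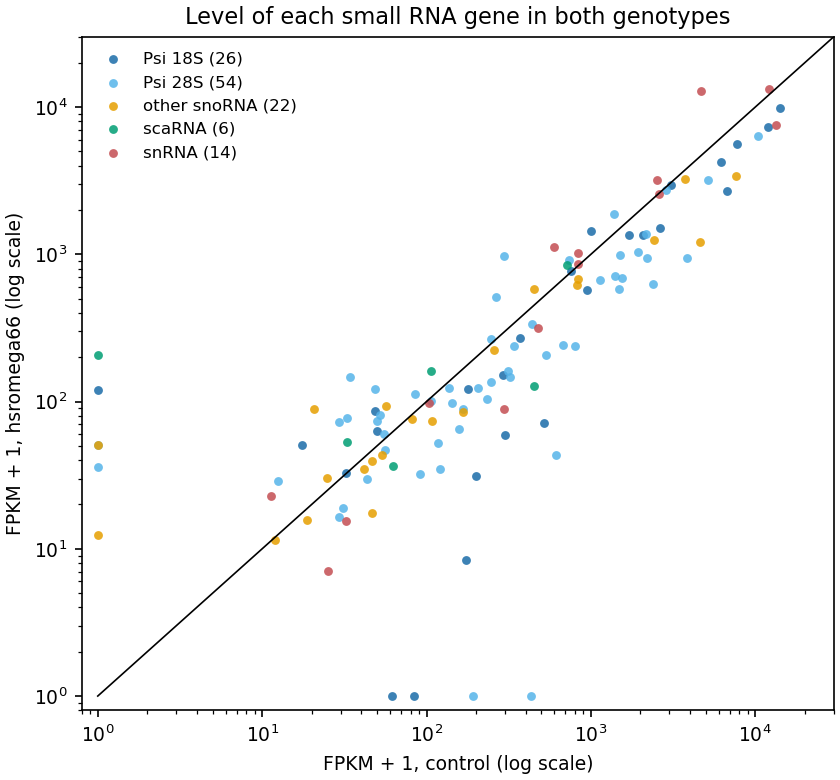
FPKM + 1 of each of the 122 genes in hsromega66 (vertical, log scale) against control (horizontal, log scale), coloured by class, with the line of equal levels. Most points with more than 100 FPKM in both genotypes lie below the line, whereas the low points scatter to both sides; the points on the lower and left edges are genes listed at 0 in 1 genotype.

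The share of genes that were lower differed by level. Of the 46 genes with a mean of both genotypes under 100 FPKM, 23 were lower in hsromega66, and the median log2 ratio was -0.02. Of the 44 with 100 to 1000 FPKM, 32 were lower, with a median of -0.58, and of the 32 with at least 1000 FPKM, 27 were lower, with a median of -0.67. Among genes outside these families with a mean under 100 FPKM, 5791 of 11184 were lower (51.8%), and the median was -0.01. With 100 to 1000 FPKM, 363 of 659 such genes were lower, with a median of -0.04. With at least 1000 FPKM, 44 of 151 were lower, and the median was 0.14. No replicate spread was at hand to test these differences.

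**Figure D3:**
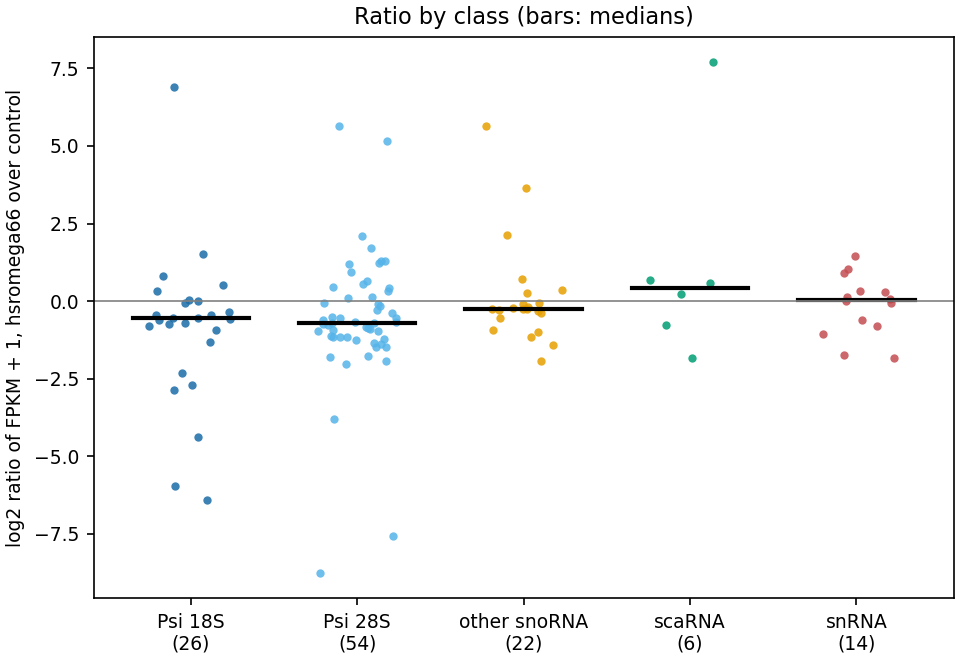
Log2 ratio of FPKM + 1, hsromega66 over control, for every gene by class, with the number of genes in brackets; each point is a gene and each bar the class median. The bars of the 2 Psi classes lie at -0.56 and -0.70, that of the other snoRNAs at -0.24, and those of the scaRNAs and snRNAs at 0.42 (0.25 without the scaRNA listed at 0) and 0.03.

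Among the pseudouridine guides, 57 of 80 were lower in hsromega66, with a median log2 ratio of -0.64. The 26 guides to 18S ribosomal RNA, the RNA of the small ribosomal subunit, had 19 lower and a median of -0.56. The 54 guides to 28S ribosomal RNA, of the large subunit, had 38 lower and a median of -0.70. With a mean of at least 1000 FPKM, 21 of 23 Psi guides were lower (median -0.69), against 11 of 27 with a mean under 100 FPKM (median 0.34).

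The most abundant guides followed that direction. snoRNA:Psi18S-1820, which lies within Nop60B (dm6 chromosome 2R, 24176228 to 24176367, plus strand), had 9828 FPKM in hsromega66 and 14201 FPKM in control. Nop60B encodes the pseudouridine synthase that works with such guides, and its own FPKM was 25.4 in hsromega66 and 26.8 in control. snoRNA:Psi28S-291, within RpL3, had 6387 FPKM in hsromega66 and 10407 FPKM in control. snoRNA:Psi18S-176, for which no listed host was found (chromosome 2R, 23839911 to 23840064, minus strand), had 7352 FPKM in hsromega66 and 11866 FPKM in control, a log2 ratio of -0.69. Its p was 0.0308 and its q 0.835 in the authors' deposited table. snoRNA:Psi28S-3342, also without a listed host (chromosome X, 5524302 to 5524465, minus strand), had 3202 FPKM in hsromega66 and 5156 FPKM in control, with the same ratio of -0.69. The authors' deposited table gave it a p of 0.0253 and a q of 0.736. Neither of the pair passed the q threshold.

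Many guides exist as several gene copies with the same target site, whose reads may not be separable. Copies were therefore also summed. Of 17 guide families with at least 2 listed copies, 14 had a lower sum in hsromega66, and the median log2 ratio of the sums was -0.69. The 5 copies of Psi18S-1377 summed to 7824 FPKM in hsromega66 and 12622 FPKM in control, although only 3 of the 5 were lower on their own. The 4 copies of Psi28S-3405 summed to 1226 FPKM in hsromega66 and 4856 FPKM in control. All 5 copies of Psi28S-1135 were lower, and their sums were 1037 and 2257 FPKM in hsromega66 and control. The 3 families with a higher sum were Psi18S-525, Psi28S-1175 and Psi28S-3091. The 3 copies of Psi28S-1175 summed to 2864 FPKM in hsromega66 and 1859 FPKM in control, yet 1 of them, Psi28S-1175b, was listed at 0 in hsromega66 and 190.1 FPKM in control.

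Most of the largest ratios had a value of 0 on 1 side. In all, 10 genes (8.20%) were listed at 0 in 1 genotype, 4 in hsromega66 and 6 in control, against 0.578% of all genes. snoRNA:Psi28S-3405c was listed at 0 in hsromega66 and 429 FPKM in control, and snoRNA:Psi18S-525a at 0 and 83.0 FPKM. In the other direction, snoRNA:Psi18S-525i was listed at 118 FPKM in hsromega66 and 0 in control. These last 2 are copies of 1 guide within the same host, Arpc2. Several of the 10 genes lie in hosts whose other small RNAs had values. Whether a 0 here is a failed estimate was not tested, and no fold is given for single genes. All 10 are nevertheless counted above among the 47 genes with a ratio of at least 2.

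The other snoRNAs include box C/D and H/ACA RNAs with other roles and orphan RNAs with no known target site. Of these 22 genes, 16 were lower in hsromega66, with a median log2 ratio of -0.24. The orphan H/ACA RNA snoRNA:Or-aca5 (chromosome 2R, 9095685 to 9095832, plus strand) had 3409 FPKM in hsromega66 and 7643 FPKM in control, a log2 ratio of -1.16. The authors' deposited table gave it a p of 0.0392 and a q of 0.960. The orphan C/D RNA snoRNA:Or-CD2 (chromosome 2R, 9097030 to 9097169, plus strand) had 1214 FPKM in hsromega66 and 4619 FPKM in control, with a p of 0.0628 in the authors' deposited table; it overlaps an exon of Ctu1 on the opposite strand. Both lie within Uhg4, a noncoding host gene. snoRNA:229 had 1251 FPKM in hsromega66 and 2411 FPKM in control and lies within Fib, which encodes fibrillarin, the methyltransferase of box C/D particles. Fib itself had 15.5 FPKM in hsromega66 and 16.3 FPKM in control.

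Other abundant snoRNAs differed less. snoRNA:Tudor-SN-a had 3266 FPKM in hsromega66 and 3723 FPKM in control. snoRNA:U3:9B, a copy of the U3 RNA that is needed to cut the ribosomal RNA precursor, had 677 FPKM in hsromega66 and 831 FPKM in control. The larger positive ratios belonged to low genes. Both of the 22 genes that were listed at 0 in control were among them, snoRNA:Or-aca1 with 49.5 FPKM and snoRNA:SC35-b with 11.4 FPKM in hsromega66. snoRNA:2R:9445205 had 88.1 FPKM in hsromega66 and 19.5 FPKM in control, and snoRNA:lola-b had 92.1 and 55.4 FPKM. snoRNA:CG16892-a was also low, with 16.4 FPKM in hsromega66 and 45.8 FPKM in control.

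Of the 6 scaRNAs, 2 were lower in hsromega66, and the median log2 ratio was 0.42, or 0.25 without scaRNA:MeU2-48, which was listed at 0 in control. scaRNA:MeU5-C46, whose symbol names a methylation site in U5, had 844 FPKM in hsromega66 and 712 FPKM in control. The pseudouridine guides to U5 and U1 were also higher: scaRNA:PsiU5-44 had 160.1 FPKM in hsromega66 and 106 FPKM in control, and scaRNA:PsiU1-6 had 52.4 and 32.0 FPKM. Guides to U2 went both ways. scaRNA:MeU2-48 was at 206 FPKM in hsromega66, against the 0 in control. scaRNA:PsiU2-38.40.42 had 127 FPKM in hsromega66 and 452 FPKM in control, and scaRNA:PsiU2-55, summed over its 2 listed transcripts, had 35.5 and 61.6 FPKM. These 2 entries of scaRNA:PsiU2-55 carry the same reference transcript and went opposite ways. The first had 23.6 FPKM in hsromega66 and 0 in control, and the second 11.9 and 61.6 FPKM. In the authors' deposited table the p of each scaRNA was above 0.05.

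The snRNAs did not share the direction of the snoRNAs: 7 of 14 were lower in hsromega66, and the median log2 ratio was 0.03. U2 RNA pairs with the branch point of the intron. Its copy snRNA:U2:34ABa (chromosome 2L, 13211925 to 13212116, minus strand) rose to 12761 FPKM in hsromega66, against 4645 FPKM in control, a log2 ratio of 1.46, with a p of 5e-05 and a q of 0.00546 in the authors' deposited table. It was the only one of the 122 genes past the q threshold. snRNA:U2:14B (chromosome X, 16254672 to 16254863, plus strand) had 1111 FPKM in hsromega66 and 597 FPKM in control, with a p of 0.00595 and a q of 0.263 in the authors' deposited table. The other listed U2 copies differed less or were low. snRNA:U2:38ABa had 3172 FPKM in hsromega66 and 2508 FPKM in control, snRNA:U2:38ABb had 97.3 and 102.5 FPKM, and snRNA:U2:34ABb had 14.5 and 31.4 FPKM. U2 genes are near-identical, so the division of reads among copies is uncertain. Summed over the 5 copies, U2 came to 17155 FPKM in hsromega66 and 7884 FPKM in control, a ratio of 2.18, and this sum was not itself tested.

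U4, which holds U6 inactive by pairing with it until the spliceosome is activated, went the other way. snRNA:U4:39B had 7579 FPKM in hsromega66 and 13315 FPKM in control, and snRNA:U4:38AB had 314 and 476 FPKM, so that the summed ratio was 0.572. In the authors' deposited table neither had a p of at most 0.05. U5, which aligns the exon ends, was represented by snRNA:U5:63BC with 1018 FPKM in hsromega66 and 838 FPKM in control. U1, which pairs with the 5′ splice site, had 2 listed copies of 5 annotated, both low: snRNA:U1:95Cc with 87.6 FPKM in hsromega66 and 295 FPKM in control, and snRNA:U1:82Eb with 21.9 and 10.3 FPKM.

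The RNAs of the minor spliceosome, which removes a small class of introns, differed little where they were abundant. snRNA:U11 had 2584 FPKM in hsromega66 and 2592 FPKM in control, and snRNA:U12 had 864 and 830 FPKM. snRNA:U4atac was low, with 6.03 FPKM in hsromega66 and 24.3 FPKM in control. snRNA:7SK, which restrains the elongation factor P-TEFb and is not spliceosomal, had 13192 FPKM in hsromega66 and 12120 FPKM in control. It was the highest of the snRNAs in hsromega66, whereas snRNA:U4:39B was above it in control.

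**Figure D4:**
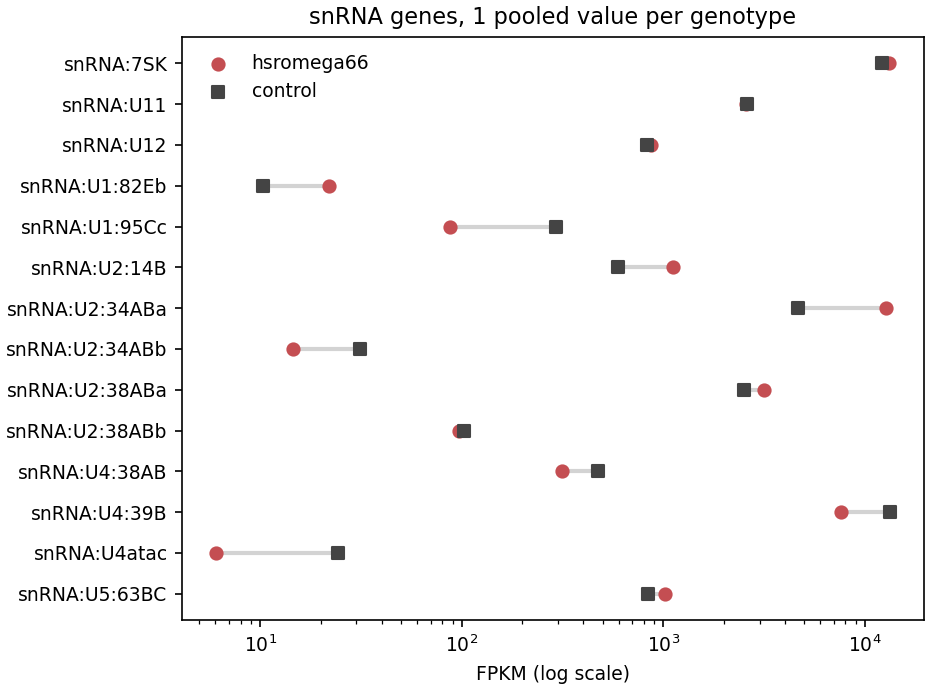
FPKM (log scale) of the 14 snRNA genes in hsromega66 (red circles) and control (dark squares), joined by a grey line for each gene. U2:34ABa, at 12761 FPKM in hsromega66 and 4645 FPKM in control, and U4:39B, at 7579 and 13315 FPKM, lie on opposite sides, while U11, U12 and 7SK nearly coincide.

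A listed host gene on the same strand held 105 of the 122 genes, in 45 hosts. A host here is a gene whose span holds the small RNA, which need not be cut out of it. The snRNAs U1:95Cc, U2:38ABb, U4:38AB, U4:39B and U4atac were among the 105. Each of these had a lower log2 ratio than the gene around it. The hosts were close to equal in both genotypes: 21 of 45 were lower in hsromega66, with a median log2 ratio of 0.01 and a lowest p of 0.154 in the authors' deposited table. Of the 105 small RNAs, 77 had a lower log2 ratio than their host, and the median difference from the host was -0.58. The 17 genes without a listed host, which include 9 snRNAs, had 7 lower and a median of 0.12. For snoRNA:Psi28S-612, counted among them, no host could be sought, because it was not matched to the annotation. Where a small RNA lies inside a host, the authors' division of reads between them could change both values.

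RpS5a, which encodes a protein of the small ribosomal subunit, held 12 of the guides, and all 12 were lower in hsromega66, with log2 ratios of -1.49 to -0.15. The lowest p among these 12 was 0.456 in the authors' deposited table. RpS5a itself had 2064 FPKM in hsromega66 and 1741 FPKM in control. Over all 14 ribosomal protein hosts, 13 were higher in hsromega66 (median 0.19), while 28 of their 39 small RNAs were lower (71.8%). The share was alike in the other hosts, where 47 of 66 small RNAs were lower (71.2%). The guides within 1 host share a primary transcript and are not replicates.

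Other hosts varied. Hrb98DE, the omega speckle hnRNP, held 7 guides that summed to 1471 FPKM in hsromega66 and 5257 FPKM in control, and 5 of the 7 were lower. Its own level was 48.7 FPKM in hsromega66 and 57.6 FPKM in control. In dom, a chromatin remodelling ATPase gene, 7 of 8 guides were lower. The guides of dom summed to 800.5 FPKM in hsromega66 and 1911 FPKM in control. The lowest p in the authors' deposited table was 0.155 among the guides of Hrb98DE and 0.154 among those of dom. The 3 snoRNAs of Uhg4 summed to 4720.1 FPKM in hsromega66 and 12405 FPKM in control, while Uhg4 had 13.4 and 13.2 FPKM. In kra, which encodes a translation regulator, 3 of 7 guides were lower, and their sum was higher in hsromega66, at 879 FPKM against 610.5 FPKM in control. In RpS16, 1 of 4 was lower.

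**Figure D5:**
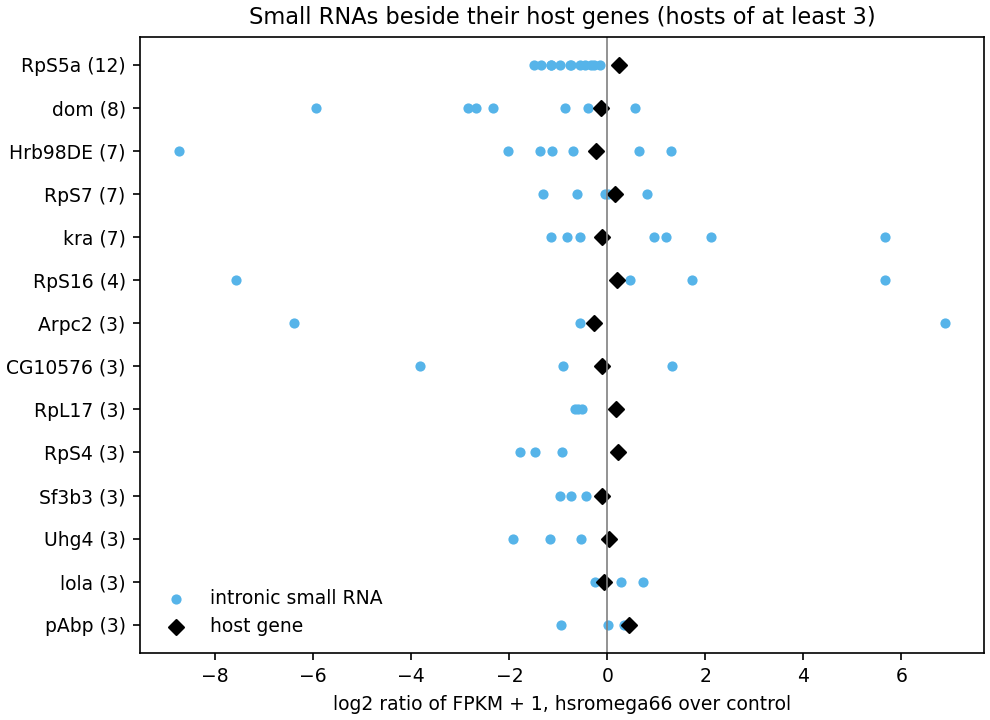
Log2 ratio of FPKM + 1, hsromega66 over control, of each small RNA (blue) and of its host (black diamond), for the 14 hosts with at least 3 listed small RNAs, with the number in brackets. The diamonds lie near 0, and 53 of the 69 blue points lie left of their host's diamond, all 12 of them in RpS5a and 3 of 7 in kra.

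By position, 21 of the 22 genes on chromosome X were lower in hsromega66, 12 of them within RpS5a, and 17 of the 33 on chromosome 3R were lower. By length, the listed genes were divided into 5 groups of about equal size. The 23 shortest, of 123 to 137 nt, had 9 lower and a median log2 ratio of 0.41. Of the 25 genes of 138 to 140 nt, 21 were lower, with a median of -0.77. Medians in the next groups were -0.48 (141 to 148 nt, 17 of 24 lower) and -0.81 (149 to 160 nt, 19 of 23 lower). The 26 genes of 161 to 444 nt had 16 lower and a median of -0.13.

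Genes for the proteins that build or carry these RNAs were listed for 73 of 83 names. None passed a p of 0.05 in the authors' deposited table, where the lowest was 0.111. Their median log2 ratio was -0.07, and 46 of 73 were lower. The 4 box C/D core genes were slightly lower or close to equal. The largest difference was that of hoip, with 67.0 FPKM in hsromega66 and 77.4 FPKM in control, and nop5 had 32.6 and 32.7 FPKM. The 4 box H/ACA core genes were lower, with a median of -0.25. NHP2 had 34.9 FPKM in hsromega66 and 44.6 FPKM in control, and CG7637, which encodes the Nop10 subunit, had 76.1 and 85.4 FPKM. All 6 listed genes of the Sm ring were lower, with a median of -0.19, SmB at 57.6 FPKM in hsromega66 and 60.9 FPKM in control. Smn, which loads Sm proteins onto snRNAs, had a log2 ratio of 0.05. Genes for snRNA transcription and 3′ end formation had 6 of 15 lower and a median of 0.07.

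Markers of some tissues also differed between the genotypes. Fat body and salivary gland markers were abundant in both genotypes, summing to 23783 and 37902 FPKM in hsromega66 and to 25755 and 38405 FPKM in control. Of the salivary gland markers, Sgs3 was lower, with 416 FPKM in hsromega66 and 863 FPKM in control (p of 0.00115 in the authors' deposited table). The more abundant Sgs7 and Sgs8 were close to equal, with log2 ratios of 0.03 and -0.15. Of the 3 neuronal markers, Syt1 was higher, with 35.8 FPKM in hsromega66 and 22.8 FPKM in control (p of 0.0051 in the authors' deposited table). The other neuronal markers went both ways, elav with a log2 ratio of -0.21 and nSyb with 0.13. Neither Sgs3 nor Syt1 passed the q threshold. All 3 gut markers (alphaTry, Amy-p and Jon99Fii) rose, with q of 0.00546 in the authors' deposited table, and summed to 2518 FPKM in hsromega66 and 904 FPKM in control. All 3 haemocyte markers were lower at a p of at most 0.05 in the authors' deposited table, and summed to 97.6 FPKM in hsromega66 and 187 FPKM in control. The 3 muscle markers were lower without passing that p, and summed to 3559 and 5226 FPKM. Of the 22 markers of 7 tissues, 21 were listed, and their part in the small RNA values was not tested.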

How the data were processed

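Whole larvae of 2 genotypes, with 2 libraries each, were measured by RNA sequencing. The submitters' processing notes name Cuffdiff 2.1.1, Cufflinks, TopHat and Bowtie, with build dm6. The sources used here do not say how strand and multiply mapped reads were handled. According to the column names, what the authors deposited was 1 pooled FPKM per transcript and genotype, with a p-value and a q-value. The q-values equal Benjamini-Hochberg adjustment over all 21529 transcripts within 4.99e-07. The table holds no counts, so the test written for counts was replaced by the deposited p and q. Every listed transcript reached 0.669 FPKM in 1 genotype; the lowest of the small RNA genes reached 11.0 FPKM.

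FPKM was summed per gene, and ratios were taken as log2(FPKM + 1). A gene was called when 1 of its transcripts had a deposited q of at most 0.05. Lengths, positions and hosts (a listed gene whose span holds the small RNA on the same strand) came from the Ensembl 115 annotation, whose coordinates are those of dm6. Of the 121 matched genes, 120 lay inside the deposited locus; the annotated snoRNA:U3:9B is longer than it. Neither fragment length nor an effective length is given, which matters for RNAs close to the read length of 100 bp. Whole reads were not recovered, since too few low values shared a length (6 in hsromega66 and 3 in control at 140 nt).

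Genes named are those past a p of 0.05, the 3 highest and the 3 largest ratios each way per class with a mean of at least 10 FPKM, all scaRNAs and snRNAs, hosts, and genes singled out for a count. These members and lists were chosen with earlier results of these data known. Nothing in the labels says that the libraries came from separate cultures. Python 3.11.15, pandas 2.3.3 and numpy 2.4.6 were used. The ratio and median steps were tested on control FPKM values multiplied by known folds. The summing over transcripts was not tested in this way.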

Additional observations from a re-analysis of the deposited data

How the results depend on the processing

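No paired analysis was possible because 1 pooled column per genotype carries no replicate numbers; for the same reason no library could be left out. The medians by class were recomputed with 0.1 or 10 FPKM added, without a filter or with a mean of at least 10 FPKM, centred on the median of all genes, at equal summed FPKM, with genes at 0 left out, with snRNA copies summed and without exon overlaps. None changed sign. The scaRNA median was 0.25 without the gene listed at 0. With a mean of at least 100 FPKM, a setting chosen after seeing the data, the median of all the small RNA genes was -0.64 and that of the other snoRNAs -0.39. Equal summed FPKM scaled hsromega66 values up by 0.06 on the log2 scale. The count of called genes was 1 at a q of at most 0.1 and 5 with a p of at most 0.05 before adjustment in the authors' deposited table. Of these 53 values, 49 stayed close to those reported and 4 moved. Pooled FPKM without counts or separate libraries limits all of these: neither counting error nor the spread between larvae can be given.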

Other observations

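Other structural and short noncoding RNAs went both ways. RNaseP:RNA, the RNA of the enzyme that trims the 5′ ends of transfer RNAs, had 7984 FPKM in hsromega66 and 5959 FPKM in control. RNaseMRP:RNA, which takes part in ribosomal RNA processing, had 7914 FPKM in hsromega66 and 8176 FPKM in control. In the authors' deposited table neither had a p of at most 0.05. The mitochondrial large ribosomal RNA mt:lrRNA had 28809 FPKM in hsromega66 and 17481 FPKM in control, with a p of 0.238 in the authors' deposited table. The small one, mt:srRNA, was low and went the other way, with 10.8 FPKM in hsromega66 and 40.2 FPKM in control. The 214 nt noncoding RNA lncRNA:CR40469 had 5.75 FPKM in hsromega66 and 11197 FPKM in control, with a p of 0.0059 and a q of 0.261 in the authors' deposited table. The microRNA gene mir-4945 was listed at 0 in hsromega66 and 654 FPKM in control.

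Some unrelated small RNA genes of equal length shared exactly the same FPKM. snoRNA:Or-aca1 and snoRNA:Psi28S-3091a, both of 135 nt, were both at 49.5 FPKM in hsromega66 and at 0 in control. snoRNA:Psi18S-1377c and snoRNA:Psi28S-1837b, both of 137 nt, were both at 47.9 FPKM in control, and had 84.6 and 120.1 FPKM in hsromega66. How many fragments stand behind such values is unknown.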
